A study of Mus musculus with 19 samples.

Results

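Bulk RNA-seq counts of 40 type I interferon-stimulated antiviral genes were described in cells sorted from mouse bone marrow. The 40 genes were given as a list of symbols, all 40 had a row among the 50854 genes of the deposited table, and all 40 passed the filter on low counts that left 18652 genes for testing. The 19 labelled libraries fell into 5 groups: 4 of resting CCR2+ve cells, 4 of resting CCR1/2+ve cells, 4 of inflamed CCR2+ve cells, 3 of inflamed CCR1/2+ve cells and 4 of inflamed CCR1+ve cells. All came from female REP mice of 8 to 12 weeks of age, a reporter strain in which fluorescent proteins mark the expression of inflammatory chemokine receptors, CCR1 and CCR2 among them, and all 5 groups are labelled monocytes. For its macrophage cultures and single-cell sort the paper gives a gate of CD11b+, Ly6C high, Ly6G- and SiglecF-, and then the receptor reporters. For the bulk libraries its methods name sorted monocytes with CCR1/2 or CCR2 only, and they describe no sort of CCR1+ve cells. Inflamed mice carried a subcutaneous osmotic pump that released IL-3, IL-6, GM-CSF and IFN-α for a week, so one of the infused cytokines is itself a type I interferon. Vehicle-loaded pumps served as controls in the pump experiments, but whether the resting mice of these libraries carried one is not given in the sources used here. The study asked whether monocytes that express both receptors differ from those with CCR2 alone, at rest and after the cytokine infusion. No label says that libraries of a group came from separate mice, so p-values measure the spread between these libraries, which may in part be technical. No label gives a preparation date, and a preparation batch cannot be told apart from the difference between resting and inflamed libraries.

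Type I interferons (IFN-α, IFN-β and relatives) bind a receptor made of IFNAR1 and IFNAR2, whose kinases TYK2 and JAK1 phosphorylate transcription factors, STAT2 among them. These join IRF9 in a complex that binds interferon-stimulated response elements in promoters and switches on a large set of genes. Their products sense viral nucleic acids, block translation, degrade RNA, deplete nucleotides or tether budding virus, and some of them feed back on the pathway. Monocytes are among the cells known for a strong response of this kind.

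Libraries held 22268658 to 30502009 reads on genes, and levels are given as CPM, read counts scaled to a common library size with TMM factors. Of the 8 monocyte markers, all were above 10 CPM in every CCR2+ve and CCR1/2+ve group, resting or inflamed, where their summed level ran from 29908 to 55812 CPM. The inflamed CCR1+ve libraries went against their label. There 5 of the 8 were above 10 CPM, and the sum was 7776 to 12435 CPM, with a mean of 5.82 CPM for Ccr2, 2.39 CPM for Cx3cr1 and 3.59 CPM for Fcgr1. The 8 neutrophil markers summed to 99216 to 145825 CPM there, against 1184 to 1496 CPM in inflamed CCR2+ve libraries, led by the granule gene Ngp at 86036 CPM. Of these 8, 7 were above 10 CPM, and 1 was lower than in inflamed CCR2+ve libraries, at -6.83 on the log2 scale. These 4 libraries are called by their receptor label in what follows, and no comparison with them is read as one between monocytes.

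A sequence feature typical of the class was looked for first. RefSeq promoters of the build of the files, GRCm38.p6, were available for 29 of the 40 genes, each covering 250 bases before and 50 after a transcription start. Mx1, Mx2, Oas2, Dhx58, Zbp1, Usp18, Parp9, Parp14, Rtp4, Ifi27l2a and Tor3a had no entry. The core of the interferon-stimulated response element was searched on both strands as GAAA, any 2 bases and GAAA again, and overlapping matches were counted. It was present in a promoter of 12 of the 29 genes, or 41.4%, against 3.99% of the 27025 genes with an entry. Counted by promoter rather than by gene, the share was 36.1% of 36 against 3.44% of 32851. The 12 genes were Ifit1, Ifit3, Oas1a, Oas3, Ddx58, Ifih1, Eif2ak2, Isg15, Trim30a, Stat2, Rsad2 and Bst2, and 5 of them held 2 or more matches in one promoter. A match is a description of these letters, and its absence says only that they are not in this window.

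The 250 bases upstream of the start are shown for 6 genes that the results turn on, 5′ to 3′ on the strand of the gene, with matches in capitals. Isg15 (chr4:156200819-156201068, minus strand) is shown for its run of 3 overlapping matches, Ifit1 (chr19:34640639-34640888, plus strand) for a pair of separate ones, and Oas1a (chr5:120907526-120907775, minus strand) and Oas3 (chr5:120777660-120777909, minus strand) as members of the family that rose most. Rsad2 (chr12:26456453-26456702, minus strand) and Cmpk2 (chr12:26468965-26469214, plus strand) are neighbours that point away from each other and were the members that fell in inflamed CCR2+ve cells. The Cmpk2 stretch held no match.
Isg15: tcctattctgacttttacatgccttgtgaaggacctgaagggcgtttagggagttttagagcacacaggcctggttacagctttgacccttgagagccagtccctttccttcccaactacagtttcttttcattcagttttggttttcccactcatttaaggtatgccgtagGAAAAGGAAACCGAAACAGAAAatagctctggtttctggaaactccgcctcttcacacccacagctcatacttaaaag
Ifit1: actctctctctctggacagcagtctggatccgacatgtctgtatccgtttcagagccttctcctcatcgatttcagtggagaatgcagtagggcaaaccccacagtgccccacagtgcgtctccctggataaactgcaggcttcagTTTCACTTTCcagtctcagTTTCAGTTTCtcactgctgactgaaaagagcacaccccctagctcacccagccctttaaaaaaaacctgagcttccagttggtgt
Oas1a: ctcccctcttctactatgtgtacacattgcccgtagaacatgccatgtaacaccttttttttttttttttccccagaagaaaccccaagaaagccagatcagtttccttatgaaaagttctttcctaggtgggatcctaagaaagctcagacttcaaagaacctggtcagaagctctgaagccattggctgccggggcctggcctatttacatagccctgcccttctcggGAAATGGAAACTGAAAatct
Oas3: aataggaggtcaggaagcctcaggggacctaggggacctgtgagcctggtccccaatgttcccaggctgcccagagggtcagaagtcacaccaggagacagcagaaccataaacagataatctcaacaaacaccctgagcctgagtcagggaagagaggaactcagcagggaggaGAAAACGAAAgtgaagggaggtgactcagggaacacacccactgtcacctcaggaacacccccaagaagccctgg
Rsad2: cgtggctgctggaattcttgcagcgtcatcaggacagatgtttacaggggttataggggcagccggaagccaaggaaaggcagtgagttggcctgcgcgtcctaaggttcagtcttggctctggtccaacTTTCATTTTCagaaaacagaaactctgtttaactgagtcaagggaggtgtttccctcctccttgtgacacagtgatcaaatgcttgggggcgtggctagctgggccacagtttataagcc
Cmpk2: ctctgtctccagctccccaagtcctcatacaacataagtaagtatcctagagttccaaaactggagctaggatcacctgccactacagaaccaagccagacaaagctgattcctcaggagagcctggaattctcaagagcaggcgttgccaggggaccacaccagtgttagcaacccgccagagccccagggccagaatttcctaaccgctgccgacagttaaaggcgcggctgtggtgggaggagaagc

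All 40 genes were transcribed in the resting marrow. The median over the genes of their mean level was 101 CPM in resting CCR2+ve cells, 63.0 CPM in resting CCR1/2+ve cells, 163 CPM in inflamed CCR2+ve cells and 136 CPM in inflamed CCR1/2+ve cells, but 28.2 CPM in inflamed CCR1+ve libraries. Per kilobase of exon the highest level in resting CCR2+ve cells was that of Ifi27l2a, an interferon-inducible gene, at 1017 CPM per kb, and the lowest that of Helz2, a helicase and nuclear receptor coactivator gene, at 1.59 CPM per kb. Within a group the coefficient of variation of a gene between libraries had a median of 22.3% in resting CCR2+ve cells and 13.1% in inflamed CCR1/2+ve cells. In these bulk samples, fewer cells of a type and less RNA per cell cannot be told apart.

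**Figure D1:**
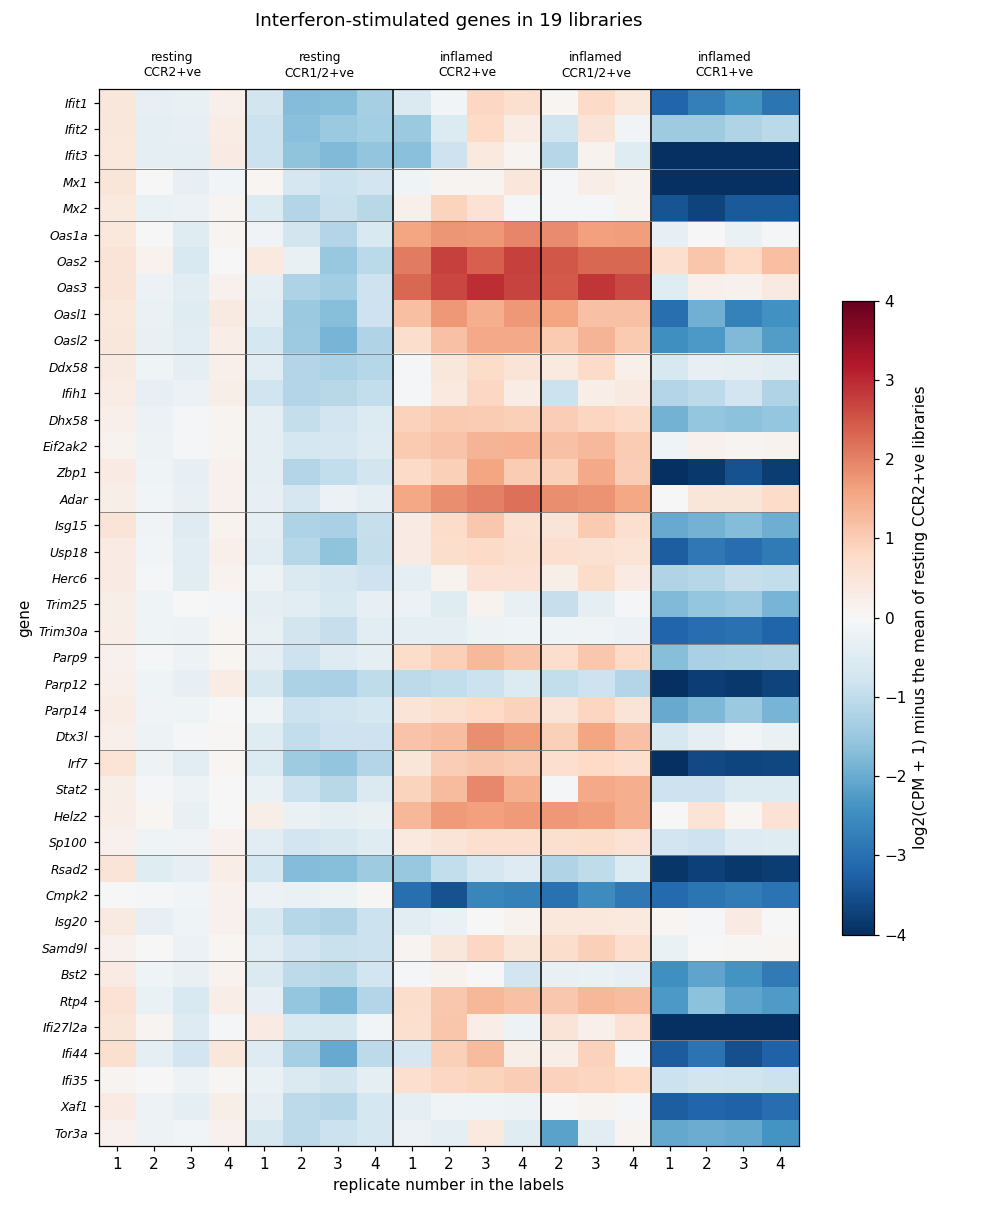
Heat map of log2(CPM + 1) of the 40 genes (rows, grouped by role) in the 19 libraries (columns, by group and replicate number), each value relative to the mean of the 4 resting CCR2+ve libraries; the colour scale stops at 4 in either direction. Resting CCR1/2+ve columns are mostly blue, the OAS rows are red in the inflamed groups of CCR2+ve or CCR1/2+ve cells, the Cmpk2 row is blue in all inflamed libraries, and the inflamed CCR1+ve columns are blue in most rows.

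At rest, CCR1/2+ve cells had lower levels of the interferon-stimulated genes than CCR2+ve cells. All 40 fold changes were negative, where 46.6% of all genes were, and their median was -0.74 on the log2 scale, while the median over all genes tested was 0.03. The list is one programme measured in shared libraries, so the 40 directions are not 40 independent observations. Past both an adjusted p of 0.05 (edgeR quasi-likelihood test, Benjamini-Hochberg over all 18652 genes) and a log2 fold change of 1 in size, 7 genes were lower in CCR1/2+ve cells: Ifit1, Ifit2, Ifit3, Oasl1, Oasl2, Irf7 and Rsad2. That is 7 of 40, where 1.90% of all genes were called lower. By adjusted p alone 29 of 40 were lower, against 8.44% of all genes, and none was higher past both cutoffs, where 2.34% of all genes were. Without CCR2+ve replicate 1, the library with the highest levels, 38 of 40 fold changes were negative. The 4 libraries of one population lay wholly below the 4 of the other for 26 genes, against 12.0% of all genes.

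The 3 IFIT genes, whose proteins bind viral RNA and hold back its translation, sit together on chromosome 19 (Ifit2 chr19:34550694-34576419, Ifit3 chr19:34583531-34588731, Ifit1 chr19:34640871-34650009), and all 3 were lower. Ifit3 stood at 224, 127, 131 and 212 CPM in CCR2+ve replicates 1 to 4 and at 91.7, 54.4, 48.8 and 55.8 CPM in CCR1/2+ve replicates 1 to 4. Every CCR1/2+ve library was below every CCR2+ve library, with replicate 1 the highest in both groups, and the fold change was -1.39 ± 0.26 on the log2 scale (SE, adjusted p = 0.00625). Ifit1 was at 131, 75.4, 76.9 and 109 CPM against 56.7, 27.9, 28.3 and 37.5 CPM, again without overlap, a change of -1.30 ± 0.27 (adjusted p = 0.00925). For Ifit2 the values were 250.0, 139, 147 and 226 CPM and 102, 56.6, 65.0 and 70.5 CPM, a change of -1.29 ± 0.23 (adjusted p = 0.00417), and the groups did not overlap.

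Rsad2 encodes viperin, which makes a chain-terminating nucleotide. Its level was 101, 50.6, 56.4 and 85.7 CPM in CCR2+ve and 42.5, 20.5, 21.0 and 25.9 CPM in CCR1/2+ve libraries, separate groups that differed by -1.34 ± 0.30 (adjusted p = 0.0149). Oasl1 and Oasl2 encode oligoadenylate synthetase-like proteins. Oasl2 measured 419, 249, 226 and 372 CPM against 189, 112, 83.0 and 133 CPM, with no overlap and a change of -1.21 ± 0.29 (adjusted p = 0.0198). Oasl1 measured 39.9, 24.5, 20.9 and 38.6 CPM against 21.6, 10.1, 8.55 and 16.2 CPM, where CCR1/2+ve replicate 1 lay above CCR2+ve replicate 3, and changed by -1.05 ± 0.31 (adjusted p = 0.0439). Irf7, the transcription factor that amplifies the response, stood at 523, 312, 269 and 385 CPM in CCR2+ve and 248, 134, 121 and 159.8 CPM in CCR1/2+ve libraries. Those groups were separate, with a change of -1.09 ± 0.28 (adjusted p = 0.0261).

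By role, adjusted p alone was passed by 3 of 3 IFIT genes, 1 of 2 Mx genes, 2 of 5 OAS genes, 5 of 6 sensors and RNA-binding effectors, 4 of 5 genes of ISG15 and ubiquitin-type ligases, 4 of 4 PARP-group genes, 3 of 4 transcription factors and nuclear proteins, 3 of 4 genes of nucleotide and RNA metabolism, 1 of 3 membrane genes and 3 of 4 others. The smallest differences were those of Cmpk2 (-0.09 ± 0.08, adjusted p = 0.541), Helz2 (-0.11 ± 0.17, adjusted p = 0.74) and Ifi27l2a (-0.17 ± 0.27, adjusted p = 0.742). Same-numbered resting libraries deviated together from their group means, so the numbers were taken as pairs, which no label states. Libraries of unlike number were not set against each other. In the pairs 40, 40, 39 and 40 of the 40 genes were lower in the CCR1/2+ve library. With the pairing in the fit, 427 of all genes were called lower past both cutoffs, against 355 without it. Of the 40 genes, 37 then passed the adjusted p, for which no share of all genes is given, and 9 passed both cutoffs. The added ones were Rtp4, a chaperone gene, at -1.16 with an adjusted p of 1.85e-08, and Ifi44, of unsettled function, at -1.30 with an adjusted p of 3.60e-06. Without pairing these were -1.12 ± 0.39 (adjusted p = 0.0959) and -1.29 ± 0.41 (adjusted p = 0.0578).

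The count of 7 depended on single libraries. It was 17 without CCR1/2+ve replicate 1 and 15 without CCR2+ve replicate 3, but 3 without CCR1/2+ve replicate 2 and 4 without CCR2+ve replicate 1 or replicate 4. Over all genes, 362, 306, 263, 265 and 260 were called lower in these fits, in that order, against 355 with all libraries of the comparison. The calls of Ifit1, Ifit2 and Ifit3 held in all 19 settings tried, and those of Oasl1 in 9 of 19. The setting without a fold cutoff, in which no call can be lost, is counted among the 19. Cell type markers moved with the same comparison. The 8 monocyte markers summed to 44263 to 50340.2 CPM in CCR2+ve and 29908 to 42214 CPM in CCR1/2+ve libraries, with 2 of 8 called lower. The 6 conventional dendritic cell markers summed to 216 to 593 CPM in CCR2+ve and 33.2 to 116 CPM in CCR1/2+ve libraries, with 4 of 6 called lower and Xcr1 under 1 CPM on average in both. The 6 plasmacytoid dendritic cell markers summed to 89.3 to 125 and 42.3 to 60.7 CPM with 2 of 6 called lower, and the 8 neutrophil markers to 565 to 864 and 2073 to 2595 CPM with 2 of 8 called higher. The 6 tissue macrophage markers summed to 253 to 361 CPM in CCR2+ve and 195 to 257 CPM in CCR1/2+ve libraries. Of these, 4 of 6 were called higher in CCR1/2+ve cells, the complement genes C1qa (2.51) and C1qb (1.73), Cd5l (3.04) and Vcam1 (4.06), and the median of the 6 was 2.12. The 6 T and NK cell markers summed to 9.06 to 14.5 and 30.5 to 80.6 CPM, with 1 called higher and 2 lower, 1 of 5 B cell markers was called higher, and 0 of 5 erythroid markers were called. The part of any of these in the difference was not tested.

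**Figure D2:**
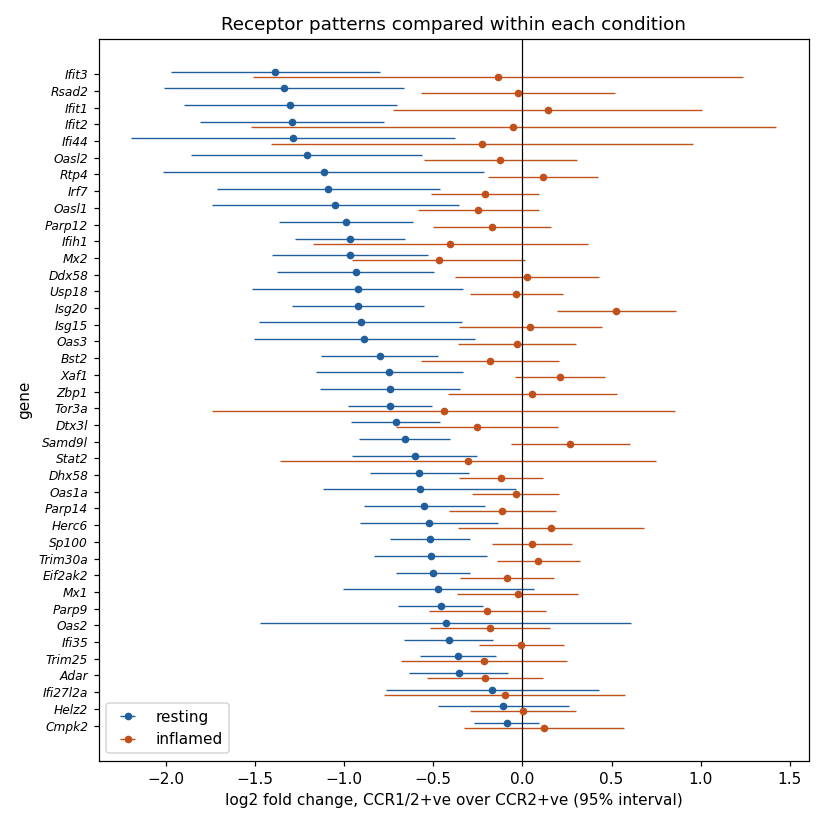
Log2 fold change of CCR1/2+ve over CCR2+ve cells for each gene (rows, ordered by the resting value), at rest (blue) and after inflammation (orange), with 95% intervals from the edgeR fit. All 40 blue points lie left of 0, from -1.39 for Ifit3 to -0.09 for Cmpk2, while the orange points lie on both sides of 0.

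Part of the list was higher in inflamed than in resting CCR2+ve cells, a difference that cannot be told apart from a preparation batch. Here and below, rose and fell mean higher and lower in inflamed than in resting libraries. Past both cutoffs 11 of 40 genes rose, against 9.37% of all genes, and 2 of 40 fell, against 19.2% of all genes. By adjusted p alone the counts were 21 higher (21.9% of all genes) and 4 lower (25.9%). The median fold change of the 40 was 0.48 on the log2 scale, where that of all genes was -0.10. In CCR1/2+ve cells 26 of 40 rose, against 9.16% of all genes, and 1 fell, against 19.4%. There the median of the 40 was 1.30 and that of all genes -0.25. The 11 genes that rose in CCR2+ve cells were Oas1a, Oas2, Oas3, Oasl1, Oasl2, Eif2ak2, Zbp1, Adar, Dtx3l, Stat2 and Helz2, and each of them also rose in CCR1/2+ve cells. These comparisons share no library, but both contrast cytokine-infused with resting mice. Upper-quartile in place of TMM scaling moved the split of higher and lower calls over all genes from 1748 and 3579 to 2500 and 3092 in CCR2+ve cells and from 1708 and 3612 to 2357 and 3113 in CCR1/2+ve cells, and scaling by library size alone gave 1207 and 4236 in the latter.

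**Figure D3:**
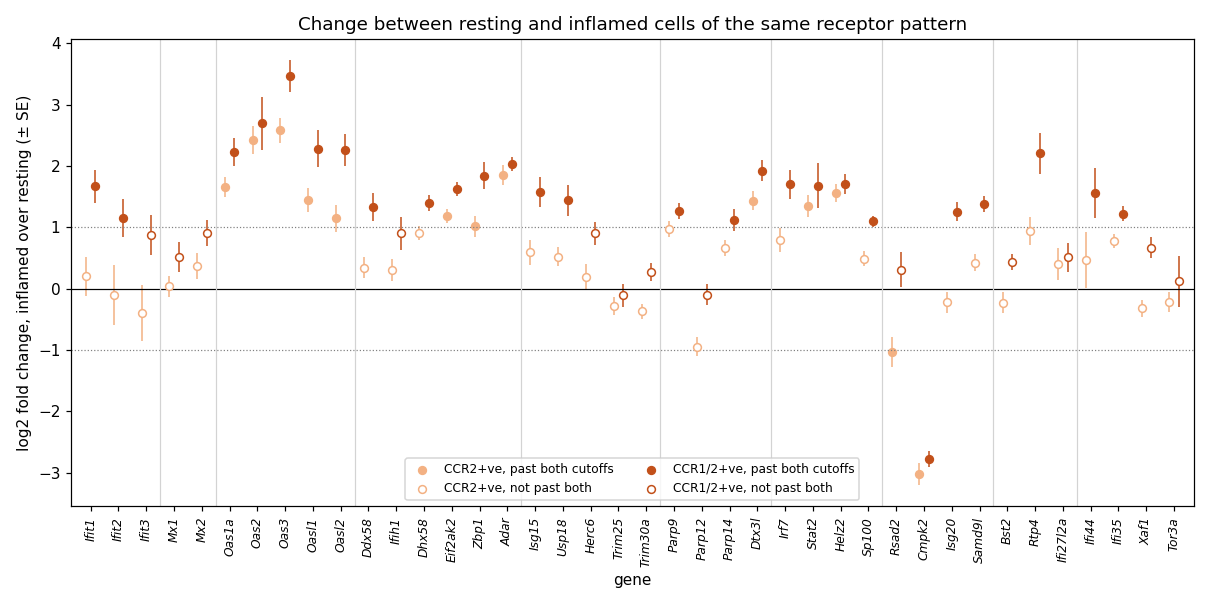
Log2 fold change of inflamed over resting cells for each gene (columns, grouped by role), in CCR2+ve cells (light orange) and CCR1/2+ve cells (dark orange), with standard errors. Filled points are past an adjusted p of 0.05 and a log2 fold change of 1 in size; Oas3 is the highest at 2.58 and 3.47, and Cmpk2 the lowest at -3.02 and -2.78.

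The OAS family is named for enzymes that sense double-stranded RNA and make oligoadenylates. Of its genes in the list, 5 of 5 rose in either population. Oas3 went from 97.3, 57.8, 49.6 and 77.0 CPM in resting to 341, 439.7, 538 and 454 CPM in inflamed CCR2+ve libraries. The CCR1/2+ve values went from 52.9, 28.4, 25.2 and 37.8 CPM to 381, 500.1 and 435 CPM. The inflamed libraries all lay above the resting ones, and the log2 fold changes were 2.58 ± 0.20 (adjusted p = 7.16e-08) and 3.47 ± 0.26 (adjusted p = 4.99e-06), or 5.99-fold and 11.1-fold. Oasl2 reached 493, 691, 877 and 882 CPM in inflamed CCR2+ve and 629, 785 and 635 CPM in inflamed CCR1/2+ve libraries, above all resting libraries of its population, with changes of 1.15 ± 0.22 and 2.27 ± 0.26 (adjusted p = 7.46e-04 and 8.44e-05). Changes of the other three were 1.66 and 2.23 for Oas1a, 2.43 and 2.70 for Oas2, and 1.45 and 2.29 for Oasl1. Oas1g, a near copy of Oas1a, rose by 2.79 and 3.21. The study kept only reads that aligned to a unique place, so reads fitting both copies equally were not counted.

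Among sensors and RNA-binding effectors, 3 of 6 rose in CCR2+ve cells and 5 of 6 in CCR1/2+ve cells. Adar, which edits adenosines in double-stranded RNA, stood at 56.5, 44.2, 38.3 and 53.8 CPM in resting and 141, 175, 194 and 223 CPM in inflamed CCR2+ve libraries. Adar read 37.5, 29.4, 39.9 and 36.2 CPM in resting and 174, 168 and 139.6 CPM in inflamed CCR1/2+ve cells. Groups were separate in both populations, and the changes were 1.86 ± 0.16 (adjusted p = 1.67e-07) and 2.04 ± 0.11 (adjusted p = 5.67e-08). Of its exon length, 16.8% overlaps Chrnb2. Zbp1, a sensor of Z-form nucleic acids, measured 219, 155, 140.3 and 198 CPM at rest and 299, 340.3, 521 and 352 CPM after inflammation in CCR2+ve cells, a change of 1.02 ± 0.18 (adjusted p = 2.06e-04). Its CCR1/2+ve values were 135, 76.5, 87.1 and 104 and 338, 508 and 345 CPM, a change of 1.85 ± 0.22 (adjusted p = 1.12e-04), and neither pair of groups overlapped. Eif2ak2, which encodes the translation-blocking kinase PKR, rose by 1.18 and 1.63.

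The RNA sensors of the RIG-I family did not pass both cutoffs in CCR2+ve cells. Ddx58, which encodes RIG-I, had a fold change of 0.34 ± 0.18 there (adjusted p = 0.125) and rose by 1.34 in CCR1/2+ve cells. Dhx58, which encodes the regulator LGP2, stayed under the fold cutoff at 0.91 ± 0.11 in CCR2+ve cells (adjusted p = 5.10e-06) and rose by 1.40 in CCR1/2+ve cells. Ifih1, which encodes MDA5, measured 162, 104, 112 and 154 CPM at rest and 127, 172, 230.1 and 159.8 CPM after inflammation in CCR2+ve cells, overlapping ranges. Its CCR1/2+ve values were 74.3, 56.9, 59.7 and 65.9 CPM and, in replicates 2 to 4, 71.4, 155 and 166 CPM, with replicate 2 within the resting range. The changes were 0.31 ± 0.18 (adjusted p = 0.173) and 0.90 ± 0.27 (adjusted p = 0.0215), under the fold cutoff in both.

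Genes of ISG15 and its enzymes did not pass both cutoffs in CCR2+ve cells (0 of 5), while Isg15 and Usp18 did in CCR1/2+ve cells. Isg15, the ubiquitin-like modifier itself, stood at 67.4, 42.2, 32.6 and 51.0 CPM in resting and 58.6, 78.7, 98.7 and 71.2 CPM in inflamed CCR2+ve libraries. The CCR1/2+ve values of Isg15 went from 35.7, 19.2, 18.4 and 24.3 CPM to 67.3, 97.8 and 75.2 CPM. Resting CCR2+ve replicate 1 lay inside the inflamed range, whereas the CCR1/2+ve groups were separate, and the changes were 0.60 ± 0.20 (adjusted p = 0.0249) and 1.58 ± 0.25 (adjusted p = 7.01e-04). Usp18, the protease that removes ISG15 and restrains signalling at IFNAR2, read 198, 144, 116 and 180.0 CPM at rest and 198, 256, 267 and 243 CPM after inflammation in CCR2+ve cells. Its CCR1/2+ve values were 118, 69.7, 50.6 and 79.8 and 249, 237 and 228 CPM. Neither pair overlapped, though the highest resting and lowest inflamed CCR2+ve libraries nearly met, and the changes were 0.52 ± 0.15 (adjusted p = 0.0109) and 1.44 ± 0.25 (adjusted p = 0.00123).

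The tripartite-motif genes of this group passed both cutoffs in neither population. Trim30a, a feedback inhibitor, measured 321, 235, 229 and 282 CPM in resting and 200.0, 206, 231 and 233 CPM in inflamed CCR2+ve libraries, a change of -0.37 ± 0.12 (adjusted p = 0.0232) under the fold cutoff. The CCR1/2+ve libraries read 215, 158, 138 and 197 and 235, 242 and 224 CPM, a change of 0.27 ± 0.14 (adjusted p = 0.155). Its near copy Trim30c rose by 1.55 and 2.41, and reads fitting both copies equally were not counted. Trim25, the ligase that activates RIG-I, had 99.9, 76.2, 84.7 and 83.4 CPM at rest and 72.4, 60.8, 94.6 and 69.4 CPM after inflammation in CCR2+ve libraries. Its values in CCR1/2+ve libraries were 66.9, 62.5, 56.3 and 68.0 and 44.8, 66.4 and 82.2 CPM. The groups overlapped in both populations, and the changes were -0.28 ± 0.14 and -0.10 ± 0.19 (adjusted p = 0.113 and 0.695). Herc6, the main ISG15 ligase of the mouse, had changes of 0.19 ± 0.22 and 0.90 ± 0.19 (adjusted p = 0.506 and 0.00196), and 13.7% of its exon length overlaps the gene model Gm45193.

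In the PARP group Dtx3l rose in both populations, Parp9 and Parp14 in CCR1/2+ve cells, and Parp12 in neither. Dtx3l, a ubiquitin ligase that works as a complex with PARP9, stood at 105, 80.4, 89.5 and 95.5 CPM in resting and 203, 220.1, 336 and 293 CPM in inflamed CCR2+ve libraries. CCR1/2+ve values were 65.1, 46.0, 51.3 and 52.0 and 179, 279 and 211 CPM. The groups were separate, with changes of 1.44 ± 0.16 (adjusted p = 2.30e-06) and 1.93 ± 0.17 (adjusted p = 3.71e-06), and 8.0% of the Dtx3l exon length overlaps Parp9. Parp9 and Parp14, which modify proteins with ADP-ribose, had changes of 0.97 and 0.66 in CCR2+ve and rose by 1.27 and 1.13 in CCR1/2+ve cells. Parp12, an ADP-ribosyltransferase that restrains viral replication, was not past both cutoffs in CCR2+ve cells, with 106, 80.8, 72.0 and 113 CPM at rest and 44.2, 46.2, 50.1 and 62.4 CPM after inflammation. Its CCR1/2+ve values were 58.9, 37.2, 36.5 and 44.6 and 45.6, 51.2 and 39.9 CPM. Only the CCR2+ve groups were separate, at -0.94 ± 0.16 (adjusted p = 1.47e-04, short of the fold cutoff), against -0.09 ± 0.18 (adjusted p = 0.704) in CCR1/2+ve cells.

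All 4 transcription factors and nuclear proteins rose in CCR1/2+ve cells, and Stat2 and Helz2 rose in CCR2+ve cells as well. Irf7 reached 499.9, 709.9, 769.6 and 736 CPM in inflamed CCR2+ve libraries, where replicate 1 lay within the resting range given above, a change of 0.79 ± 0.19 (adjusted p = 0.00292) that passed adjusted p alone. In inflamed CCR1/2+ve libraries it reached 572, 625 and 582 CPM, more than every resting library of that population, a change of 1.70 ± 0.24 (adjusted p = 3.01e-04). Stat2, whose product is part of the complex described above, stood at 145, 119, 108 and 125 CPM in resting and 229, 301, 470.0 and 333 CPM in inflamed CCR2+ve libraries, without overlap and with a change of 1.35 ± 0.18 (adjusted p = 1.67e-05). In CCR1/2+ve cells Stat2 read 103, 67.4, 56.8 and 82.3 CPM at rest and, in replicates 2 to 4, 121, 355 and 337 CPM after inflammation. Replicate 2 was close to the resting range, and the change was 1.68 ± 0.36 (adjusted p = 0.00434). Helz2 stood at 21.8, 19.1, 14.4 and 17.9 and 47.0, 61.2, 58.8 and 61.5 CPM in CCR2+ve cells, and at 21.2, 14.9, 13.9 and 14.4 and 63.0, 59.7 and 51.2 CPM in CCR1/2+ve cells. Its groups did not overlap, and it rose by 1.57 and 1.71. Sp100, a nuclear body component, measured 871, 678, 694 and 863 and 1013, 1100.3, 1229 and 1241 CPM in CCR2+ve cells, separate groups that differed by 0.49 ± 0.12 (adjusted p = 0.00248), under the fold cutoff. In CCR1/2+ve cells its 561, 454, 491 and 546 and 1194, 1266 and 1154 CPM were separate too, and the change was 1.10 ± 0.09 (adjusted p = 1.51e-06).

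The genes of nucleotide and RNA metabolism included the ones that fell. Cmpk2 (chr12:26469204-26479837), a mitochondrial kinase that supplies cytidine nucleotides, dropped from 235, 230.0, 218 and 268 CPM in resting to 28.3, 20.5, 38.1 and 35.6 CPM in inflamed CCR2+ve libraries. Across CCR1/2+ve libraries it went from 204, 197, 205 and 244 CPM to 29.2, 40.2 and 31.7 CPM. No inflamed library came near a resting one, and the changes of -3.02 ± 0.18 (adjusted p = 2.31e-09) and -2.78 ± 0.13 (adjusted p = 1.82e-08) amount to levels 8.13-fold and 6.88-fold lower. Rsad2 (chr12:26442746-26456452), whose enzyme acts on a cytidine nucleotide, was at 23.9, 34.9, 43.6 and 48.5 CPM in inflamed CCR2+ve and 29.9, 34.5 and 47.9 CPM in inflamed CCR1/2+ve libraries. Against the resting values above, the CCR2+ve groups were separate and Rsad2 fell, at -1.03 ± 0.25 (adjusted p = 0.00375), close to the fold cutoff. The CCR1/2+ve groups overlapped, at 0.31 ± 0.29 (adjusted p = 0.417). The call of Rsad2 in CCR2+ve cells held in 9 of 18 settings, with an adjusted p below the cutoff in all 18, while that of Cmpk2 held in all of them. The 18 include the setting without a fold cutoff, in which no call can be lost.

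Isg20, an RNA exonuclease, stood at 39.5, 24.6, 27.0 and 34.7 CPM in resting and 22.9, 25.7, 30.2 and 34.1 CPM in inflamed CCR2+ve libraries, overlapping groups that differed by -0.22 ± 0.17 (adjusted p = 0.311). Among CCR1/2+ve libraries it went from 19.7, 13.6, 12.9 and 16.5 CPM to 41.3, 41.6 and 40.5 CPM, separate groups, and rose by 1.26 ± 0.16 (adjusted p = 4.28e-05). Samd9l, a translation-restricting factor, measured 307, 271, 234 and 286 and 295, 378, 491 and 385 CPM in CCR2+ve cells, with overlap and a change of 0.43 ± 0.14 (adjusted p = 0.0235) under the fold cutoff. Its CCR1/2+ve values were 199, 159, 148 and 152 and 449, 532 and 437 CPM, without overlap, and it rose by 1.39 ± 0.13 (adjusted p = 5.32e-06).

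Membrane genes passed both cutoffs once, Rtp4 in CCR1/2+ve cells. Rtp4 had 281, 156, 121 and 226 CPM at rest and 302, 395, 466 and 425 CPM after inflammation in CCR2+ve libraries, a change of 0.95 ± 0.23 (adjusted p = 0.00372). In CCR1/2+ve libraries it had 147, 62.4, 51.2 and 81.8 and 394, 471 and 440.4 CPM, and rose by 2.21 ± 0.33 (adjusted p = 5.16e-04). Groups were separate in both, and 13.9% of its exon length overlaps the gene model Gm45338. Bst2, which encodes tetherin, stood at 180.2, 126, 116 and 156 and 138, 156, 144 and 84.0 CPM in CCR2+ve cells and at 96.0, 68.9, 66.1 and 83.4 and 116, 118 and 114 CPM in CCR1/2+ve cells. The CCR2+ve groups overlapped and the CCR1/2+ve groups did not, with changes of -0.22 ± 0.17 and 0.43 ± 0.13 (adjusted p = 0.317 and 0.0204). Ifi27l2a had 633, 489, 317 and 444 CPM at rest and 719.9, 977, 545 and 395 CPM after inflammation in CCR2+ve libraries. Its CCR1/2+ve values were 573, 301, 292 and 426 and 660.3, 527 and 680.2 CPM. Inflamed and resting libraries overlapped in both, at 0.40 ± 0.26 and 0.51 ± 0.24 (adjusted p = 0.24 and 0.111).

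IFIT and Mx genes, the classical readouts of interferon exposure, did not pass both cutoffs in inflamed CCR2+ve cells. Ifit1 read 63.3, 88.5, 171 and 148 CPM, Ifit2 65.0, 125, 324 and 225 CPM and Ifit3 52.5, 94.2, 222 and 182 CPM in inflamed CCR2+ve replicates 1 to 4. Replicate 1 was the lowest and replicate 3 the highest for all 3, each range overlapped the resting one, and the changes were 0.20 ± 0.31, -0.10 ± 0.49 and -0.39 ± 0.46, with adjusted p values of 0.641, 0.887 and 0.529. In inflamed CCR1/2+ve replicates 2 to 4, Ifit1 read 101, 163 and 129 CPM, Ifit2 105, 265 and 169.9 CPM and Ifit3 76.3, 184 and 119 CPM. Ifit1 and Ifit2 rose there (1.67 ± 0.27 and 1.16 ± 0.31, adjusted p = 8.82e-04 and 0.0136), and Ifit3 had 0.88 ± 0.32 (adjusted p = 0.0508). Mx1, a dynamin-like GTPase gene, stood at 88.2, 62.4, 49.9 and 58.9 and 55.8, 69.0, 68.3 and 86.9 CPM in CCR2+ve cells and 66.5, 39.4, 34.6 and 36.5 and 61.3, 77.0 and 70.2 CPM in CCR1/2+ve cells. Its groups overlapped in both populations, with changes of 0.04 ± 0.18 and 0.51 ± 0.24 (adjusted p = 0.88 and 0.121). Mx2, its low-level relative, had 16.7, 10.3, 10.6 and 13.6 and 14.8, 24.0, 19.2 and 12.0 CPM in CCR2+ve cells and 8.31, 4.98, 6.27 and 5.27 and 12.2, 12.2 and 13.9 CPM in CCR1/2+ve cells. Only the CCR1/2+ve groups were separate, and the changes were 0.37 ± 0.21 and 0.91 ± 0.21 (adjusted p = 0.163 and 0.00358).

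Of the 4 remaining genes, none passed both cutoffs in CCR2+ve cells. Ifi35, an interferon-induced leucine zipper protein gene, measured 122, 114, 96.2 and 116 and 179, 199.9, 209 and 222 CPM in CCR2+ve cells and 93.3, 74.1, 66.3 and 84.7 and 214, 203 and 196 CPM in CCR1/2+ve cells. Groups were separate in both, with a change of 0.79 ± 0.11 (adjusted p = 3.48e-05) in the first and a rise of 1.23 ± 0.12 (adjusted p = 7.60e-06) in the second, and 16.8% of its exon length overlaps the gene model Gm11626. Xaf1, which promotes apoptosis, had 151, 105, 93.0 and 141 and 91.2, 109.7, 108 and 104 CPM in CCR2+ve cells and 91.4, 57.8, 53.8 and 73.6 and 118, 128 and 115 CPM in CCR1/2+ve cells. The first pair overlapped at -0.32 ± 0.14 (adjusted p = 0.0809), the second was separate at 0.67 ± 0.17 (adjusted p = 0.00877). Tor3a, a torsin ATPase gene, stood at 282, 215, 229 and 278 and 211, 194, 326 and 177 CPM in CCR2+ve cells and 159.9, 121, 136 and 153 and 56.1, 180.1 and 267 CPM in CCR1/2+ve cells. The inflamed values were widely spread, with CCR1/2+ve replicate 2 below every resting library, and the changes were -0.21 ± 0.17 and 0.12 ± 0.42 (adjusted p = 0.321 and 0.846). Ifi44 had a change of 0.47 ± 0.46 (adjusted p = 0.437) in CCR2+ve cells and rose by 1.56 in CCR1/2+ve cells. Beside both comparisons, the 5 erythroid markers summed to 73.5 to 221 CPM in resting and 1.08 to 3.53 CPM in inflamed CCR2+ve libraries, with 5 of 5 called lower in each population. Conventional dendritic cell markers were called lower for 4 of 6 in CCR2+ve and 3 of 6 in CCR1/2+ve cells. They summed to 108 to 558 CPM in inflamed CCR2+ve and 16.5 to 77.3 CPM in inflamed CCR1/2+ve libraries, ranges that overlap the resting ones given above. Plasmacytoid dendritic cell markers were called lower for 3 of 6 and 1 of 6. Neutrophil markers were called higher for 3 of 8 in CCR2+ve cells, where they summed to 565 to 864 CPM at rest and 1184 to 1496 CPM after inflammation. In CCR1/2+ve cells 5 of 8 were higher and 1 lower, with sums of 2073 to 2595 and 2273 to 2776 CPM. Monocyte markers were higher for 1 of 8 and lower for 1 of 8 in CCR2+ve cells and higher for 3 of 8 in CCR1/2+ve cells. Of the 6 tissue macrophage markers, 2 were higher in CCR2+ve cells, and 1 was higher and 3 were lower in CCR1/2+ve cells. T and NK cell markers were lower for 3 of 6 and 1 of 6, and B cell markers for 1 of 5 and 0 of 5. The part of these markers in the changes was not tested.

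**Figure D4:**
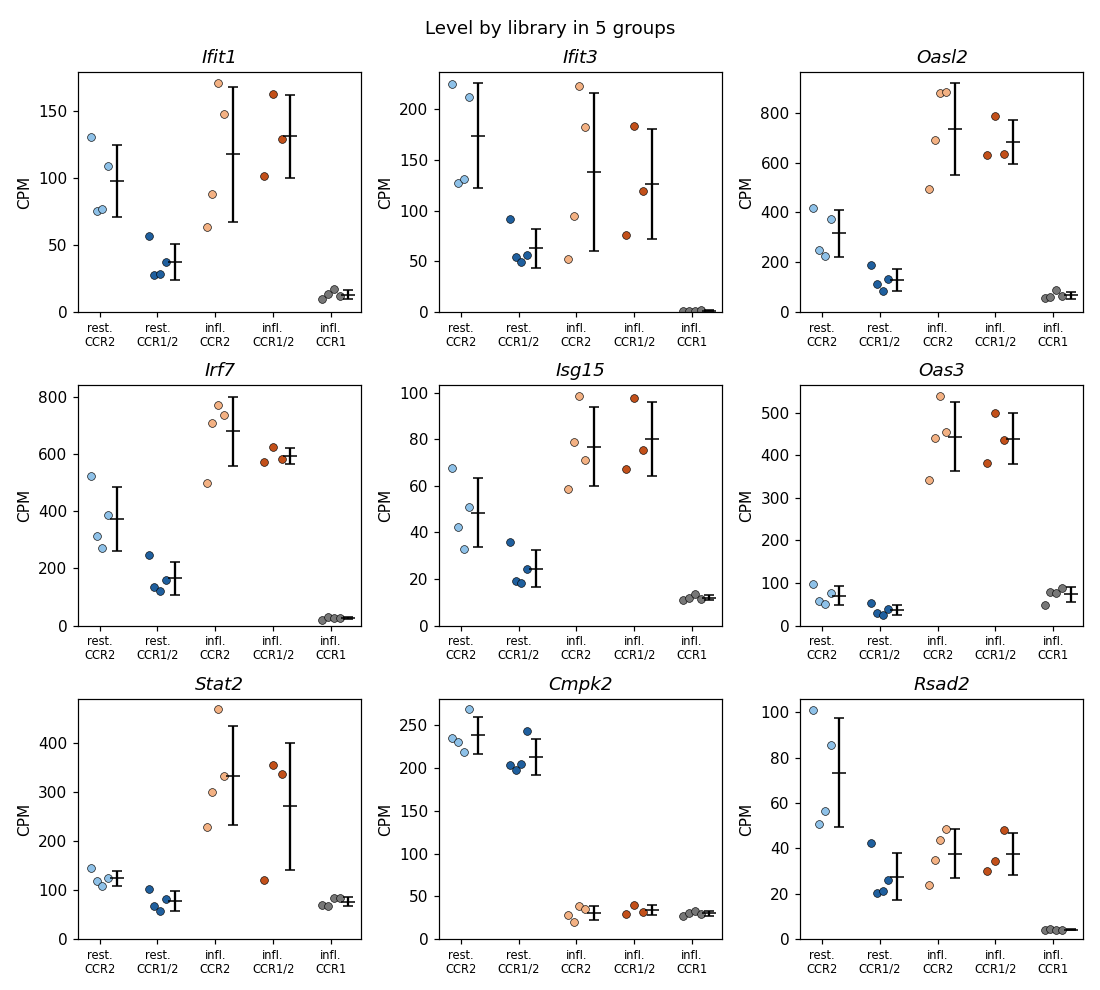
CPM of 9 genes in each library of the 5 groups (points), with the group mean and SD beside them (bars); the vertical axes start at 0. Resting CCR1/2+ve points lie below resting CCR2+ve points for Ifit1, Ifit3, Oasl2, Irf7 and Rsad2, inflamed points of both populations rise above them for Oas3, and Cmpk2 falls from 197 CPM or more at rest to at most 40.2 CPM.

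After inflammation no gene of the list was called between the receptor patterns. Between inflamed CCR1/2+ve and CCR2+ve cells 0 of 40 genes passed both cutoffs, where 0.102% and 0.0429% of all genes were called higher and lower. None passed the adjusted p of edgeR alone, 1 had an unadjusted p below 0.05, and DESeq2 called 0 as well. The fold changes ran from -0.47 for Mx2 to 0.53 for Isg20, 13 of them positive (45.0% of all genes) and 27 negative (53.1%), or 19 and 21 with upper-quartile scaling, with a median of -0.07 beside -0.03 for all genes. A missed threshold does not show equal levels. The 95% interval of the log2 difference lay within 1 of 0 for 33 of 40 genes, and reached -1.53 to 1.42 for Ifit2 and -1.74 to 0.86 for Tor3a. Isg20 was the gene with the low unadjusted p: its 3 CCR1/2+ve libraries all lay above the 4 CCR2+ve libraries, with an interval of 0.19 to 0.86 and an adjusted p of 0.29. Xaf1 was the other gene whose libraries were separate, 2 of 40, where 5.51% of all genes were separate and higher. Beside this comparison the 8 neutrophil markers summed to 1184 to 1496 CPM in CCR2+ve and 2273 to 2776 CPM in CCR1/2+ve libraries, with 2 of 8 called higher. No marker of the other lists was called. Sums also did not overlap for conventional dendritic cell markers (108 to 558 and 16.5 to 77.3 CPM) and plasmacytoid ones (91.5 to 109 and 75.7 to 84.1 CPM). The same held for T and NK cell markers (3.10 to 4.06 and 5.20 to 6.59 CPM). The part of these markers was not examined.

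Whether the change with inflammation differed between the populations was tested directly, as the interaction of population and condition. All 40 interaction terms were positive, as were 42.5% of all genes, with a median of 0.60 on the log2 scale beside -0.10 for all genes. They reuse the 4 groups compared above, so they are not independent of the difference seen at rest. By adjusted p 1 gene passed, Isg20, at 1.44 ± 0.25 (adjusted p = 0.0273), where 0.241% of all genes passed with a positive term. The next lowest adjusted p values were those of Samd9l (0.92 ± 0.21, adjusted p = 0.0588) and Xaf1 (0.95 ± 0.24, adjusted p = 0.0829). Ifit1 had a term of 1.43 ± 0.47 (adjusted p = 0.215) and Irf7 one of 0.87 ± 0.34 (adjusted p = 0.285). Thus Ifit1, Isg15 and Irf7 passed both cutoffs in CCR1/2+ve cells and not in CCR2+ve cells, yet in this fit their changes were not shown to differ (for Isg15, 0.94 ± 0.36, adjusted p = 0.27). With the replicate number as a block, a fit over replicates 2 to 4 of each group, Isg15 did not pass and 8 genes did. These were Isg20, Ifit1 (1.34 with an adjusted p of 0.0335), Irf7 (0.80 with an adjusted p of 0.0355), Usp18, Rsad2, Samd9l, Rtp4 and Xaf1. Same-numbered libraries deviated together at rest, but not in every pair of inflamed CCR1/2+ve and CCR2+ve libraries. This block also ties resting to inflamed libraries. For replicates 2 to 4 the deviations of those correlated at -0.06 to 0.27 in CCR2+ve and 0.07 to 0.20 in CCR1/2+ve cells. The numbers thus do not pair all libraries of this fit, and no conclusion is drawn from it. The count without the block was 10 with DESeq2 and 0 without resting CCR1/2+ve replicate 2, inflamed CCR1/2+ve replicate 3 or inflamed CCR2+ve replicate 1. It was 4 without resting CCR1/2+ve replicate 1 and 2 without inflamed CCR2+ve replicate 3. Positive calls over all genes moved as well, from 45 to 379 with DESeq2. They were 1, 0 and 3 in the fits that called none of the 40, in the order given. In the last fits named they were 59 and 34.

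The inflamed CCR1+ve libraries, in which the monocyte marker sum was low, held most of the genes at low levels. Against inflamed CCR2+ve cells 35 of 40 were lower past both cutoffs and none higher, where 16.8% of all genes were called lower and 14.4% higher. Against inflamed CCR1/2+ve cells 36 of 40 were lower and none higher, where 14.6% and 13.2% of all genes were. The median fold changes were -2.50 and -2.36 on the log2 scale, beside -0.01 and 0.00 for all genes. These comparisons share the CCR1+ve libraries, so they are not independent of each other. The marker sums given at the start moved with both. Conventional dendritic cell markers were also lower for 4 of 6 in each, and the 6 T and NK cell markers summed to 1360.2 to 1707 CPM in CCR1+ve libraries, 1562 CPM of it on average from Nkg7, against 3.10 to 4.06 CPM in inflamed CCR2+ve libraries. Neutrophil markers were higher for 7 of 8 and lower for 1 of 8 in each, the lowest at -6.83 and -7.46. Of 6 tissue macrophage markers, 1 was higher and 3 lower against CCR2+ve cells, and 1 higher and 2 lower against CCR1/2+ve cells. The highest values of these 6 were 8.70 and 7.75. The part of these markers was not tested.

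The lowest relative levels were those of Ifi27l2a, Mx1 and Ifit3. In CCR1+ve replicates 1 to 4 Ifi27l2a read 4.73, 6.37, 2.73 and 5.18 CPM, far below all inflamed CCR2+ve libraries, a change of -7.10 ± 0.39 (adjusted p = 2.71e-07). Mx1 read 0.364, 1.13, 0.324 and 0.518 CPM, a change of -6.88 ± 0.29 (adjusted p = 3.31e-11), and Ifit3 0.864, 1.40, 1.48 and 1.88 CPM, a change of -6.62 ± 0.61 (adjusted p = 4.66e-05). Against CCR1/2+ve cells the 3 values were -7.03, -6.88 and -6.50. Mean levels under 1 CPM were found for Mx1, Mx2 and Ifi44. Irf7 stood at 19.3, 28.6, 27.3 and 28.1 CPM, against a lowest value of 499.9 CPM in inflamed CCR2+ve libraries, and Zbp1 at 9.65, 11.1, 14.9 and 11.6 CPM.

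A few genes did not follow. Isg20 read 32.5, 29.4, 38.9 and 30.3 CPM in CCR1+ve libraries, within reach of inflamed CCR2+ve cells (0.22 ± 0.15, adjusted p = 0.258). Cmpk2 read 26.9, 30.2, 33.2 and 29.7 CPM, overlapping both other inflamed groups (-0.03 ± 0.17 and -0.17 ± 0.14, adjusted p = 0.919 and 0.375), and all 11 inflamed libraries lay between 20.5 and 40.2 CPM. Samd9l and Ddx58 were lower by adjusted p alone, at -0.53 and -0.88 against CCR2+ve cells. Ifit2 read 68.6, 67.9, 79.7 and 87.0 CPM and lay above inflamed CCR2+ve replicate 1 but below the other three, at -1.29 ± 0.48 (adjusted p = 0.0633). The 11 genes that rose in CCR2+ve cells with inflammation were among the 35 of 40 called lower than in inflamed CCR2+ve cells. They ran from Eif2ak2, 2.27-fold below inflamed CCR2+ve cells, to Zbp1, 32.0-fold below them. These genes were picked by high levels in those same CCR2+ve libraries, so nothing is read from their all being lower. There is no resting CCR1+ve group, so no change with inflammation can be given for these cells.

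Within groups the genes moved together from library to library. In resting CCR2+ve cells replicate 1 held the highest value for 38 of 40 genes and replicate 3 the lowest for 27. In resting CCR1/2+ve cells replicate 1 was the highest for 37 of 40 and replicate 3 the lowest for 24. Replicate 1 of inflamed CCR2+ve cells was the lowest of its group for 34 of 40 genes, and replicate 1 of inflamed CCR1+ve cells for 27. In inflamed CCR1/2+ve cells the lowest values were shared between replicate 2, with 19 genes, and replicate 4, with 17. Over the 4 resting CCR2+ve libraries the 40 genes summed to 4729.6 to 7255 CPM, and over the 4 resting CCR1/2+ve libraries to 2901 to 4473 CPM.

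The ligands, receptors and signalling genes of the pathway were read from fixed lists. Of 18 type I interferon genes listed, 15 had no read in any library, among them all IFN-α genes of the list, and Ifnb1 stayed at or below 0.156 CPM. A count of 0 in these libraries allows up to 3 reads. Only Ifnk passed the filter, at a mean of 0.481 CPM in resting CCR2+ve cells. Irf9 was not analysed here. For the lists that follow, the shares of all genes called with inflammation were 9.37% higher and 19.2% lower in CCR2+ve cells and 9.16% and 19.4% in CCR1/2+ve cells. The lists hold 6 to 12 tested genes each, and nothing is read from how their counts compare with these shares.

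The receptor subunit gene Ifnar2 fell with inflammation and Ifnar1 stayed under the fold cutoff. Ifnar2 went from 145, 124, 139.5 and 140.2 CPM in resting to 33.0, 28.0, 34.6 and 43.3 CPM in inflamed CCR2+ve libraries and from 117, 96.9, 119.9 and 109 to 31.5, 38.1 and 37.2 CPM in CCR1/2+ve libraries. Groups were far apart, and it fell, at -2.05 ± 0.14 and -1.76 ± 0.12 (adjusted p = 1.01e-08 and 2.44e-07). Ifnar1 had 218, 179, 189.8 and 212 CPM at rest and 110.2, 92.0, 156 and 111 CPM after inflammation in CCR2+ve libraries, a change of -0.84 ± 0.15 (adjusted p = 2.12e-04) under the fold cutoff, and -0.60 ± 0.32 (adjusted p = 0.159) in CCR1/2+ve cells. At rest Ifnar1 was lower in CCR1/2+ve cells by adjusted p alone, at -0.45 ± 0.09 (adjusted p = 0.0039). Of the 6 interferon receptor genes tested, including those for type II and III interferons, 0 rose and 3 fell in CCR2+ve cells, and 0 rose and 2 fell in CCR1/2+ve cells, with Ifngr2 the lowest at -3.30 and -2.93.

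Of 7 kinase and interferon regulatory factor genes tested, 1 rose and 2 fell in CCR2+ve cells, and 1 rose and 1 fell in CCR1/2+ve cells. Of the receptor kinases, Tyk2 rose by 2.50 and 2.15, while Jak1 fell in CCR2+ve cells, at -1.53 ± 0.13, and had -0.97 ± 0.10 in CCR1/2+ve cells. Irf8, a myeloid transcription factor, fell in both, at -2.54 and -2.80.

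Of 7 feedback genes, 1 rose and 2 fell in each population, beside the same shares of all genes. Socs3 rose from a mean of 2.70 to 13.4 CPM in CCR2+ve cells. In CCR1/2+ve cells Socs3 rose to a mean of 8.46 CPM, from a resting mean of their own that is not given here. The highest log2 fold changes among the 7 genes were 2.23 in CCR2+ve and 2.999 in CCR1/2+ve cells. Socs1, an inhibitor of the receptor kinases, fell to a mean of 0.860 CPM in inflamed CCR2+ve cells, at -3.98 and -3.49. Of 12 genes that act upstream of interferon production, 4 rose and 1 fell in CCR2+ve cells, and 5 rose and 1 fell in CCR1/2+ve cells. The adaptor genes Mavs (1.10 and 1.42), Myd88 (1.26 and 1.66) and Ticam1 (1.54 and 1.92) rose in both, and Cgas, the sensor of cytosolic DNA, fell (-1.91 and -1.96). At rest 1 of the 12 was called, Tlr7, an endosomal RNA sensor, lower in CCR1/2+ve cells at -1.13 ± 0.12 (adjusted p = 8.88e-05).

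**Figure D5:**
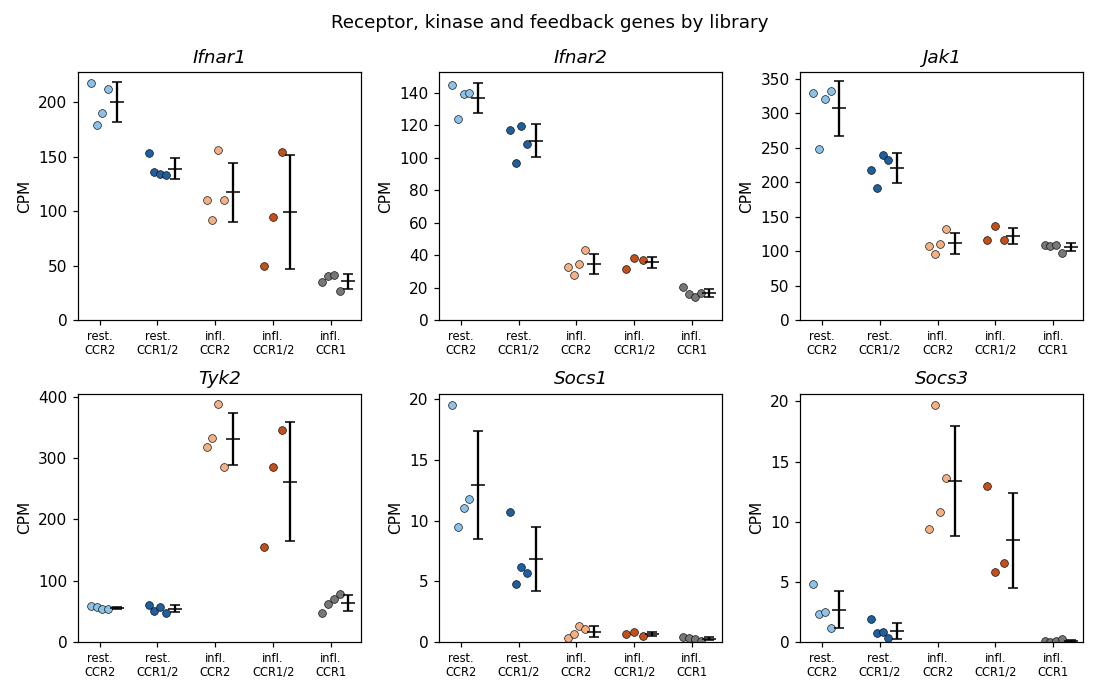
CPM of 6 receptor, kinase and feedback genes in each library of the 5 groups (points), with the group mean and SD beside them (bars); the vertical axes start at 0. Ifnar2 and Jak1 are lower, and Tyk2 is higher, in inflamed than in resting libraries of both populations.

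Relatives of the 40 genes, near copies among them, were read as well. Ifit3b, a near copy of Ifit3, was lower in resting CCR1/2+ve cells at -1.42 ± 0.25 (adjusted p = 0.00308). Reads fitting both copies equally were not counted. Of 13 relatives tested, 6 rose in CCR2+ve cells and 8 in CCR1/2+ve cells with inflammation, and none fell. Parp10 was among those that rose, at 1.90 and 2.35. In inflamed CCR1+ve libraries 8 of the 13 were lower and 2 higher than in inflamed CCR2+ve cells, where 16.8% and 14.4% of all genes were, with Ifit3b the lowest at -7.56. Ifi27, the relative of Ifi27l2a, was one of the exceptions and was higher in inflamed CCR1+ve libraries, at a mean of 223 CPM against 30.4 CPM in inflamed CCR2+ve cells, a difference of 2.88 ± 0.13 (adjusted p = 6.91e-12).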

How the data were processed

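RNA from sorted mouse bone marrow cells was made into libraries with a low-input kit and sequenced. The values were whole-number read counts per gene, deposited by the authors without normalization; their processing notes name STAR 2.7.10a and GRCm38, and the strand setting is not given in the sources used here. 1 column that matched no labelled sample was not used.

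Groups were taken from the sample labels. Genes were kept if their counts averaged 1 or more across the 19 libraries, and edgeR 4.0.16 (R 4.3.3) was run with TMM factors and a two-sided, robust quasi-likelihood test, fitted on the groups compared. P-values were adjusted by Benjamini and Hochberg over all 18652 genes, and calls needed an adjusted p under 0.05 together with a log2 fold change of 1 or more in size (adjusted p alone for the interaction). Intervals are at 95%. The fit was tested on simulated data.

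No pair of libraries within a group agreed within sampling noise. Same-numbered libraries deviated together in the resting comparison (r = 0.33 to 0.54 over 9158 genes) and between inflamed CCR1+ve and CCR2+ve cells (r = 0.14 to 0.26), so their numbers were taken as pairs. In no other comparison did every pair exceed 0.1.

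Levels by library are printed for the most abundant and most changed gene of each role, for called genes, and for Irf7, Stat2, Isg15 and Usp18. The genes, lists and rules were chosen with earlier results of these data known. Alternatives were DESeq2 1.42.0, other scalings and filters, 1 fit of all libraries, the replicate block and leaving out each library. GC offsets were chosen after seeing the data. Results for some items are not reported here.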

Additional observations from a re-analysis of the deposited data

Results flagged for a closer look

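In groups of 4 libraries, a highest or lowest library was set against the other three for each of the 40 genes (160 sets of 4 values), and chance alone marks about 1 in 20 sets. The sets marked, all listed here, were no more than that rate gives, so they are a description only. Resting CCR1/2+ve replicate 1 stood apart for 5 genes: Ifit3 at 91.7 CPM, where the next library had 55.8 CPM, Mx1 at 66.5 CPM, where the next had 39.4 CPM, Ddx58 at 50.5 CPM, where the next had 31.6 CPM, Parp14 at 67.3 CPM, where the next had 45.9 CPM, and Helz2 at 21.2 CPM, where the next had 14.9 CPM. This library held the highest level of its group for 37 of 40 genes, so the 5 are not separate observations. In inflamed CCR1+ve cells, replicate 1 was low for Irf7 at 19.3 CPM, with the next library at 27.3 CPM, and replicate 4 was low for Tor3a at 46.7 CPM, with the next at 59.2 CPM.

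The change of Isg20 with inflammation differed between CCR1/2+ve and CCR2+ve cells, by 1.44 on the log2 scale in the interaction test (edgeR, adjusted p = 0.0273). Its call held in 22 of 25 settings, among them a fold cutoff of 1 on the log2 scale, which a term of 1.44 passes in any case.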

How the results depend on the processing

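The count of genes lower in resting CCR1/2+ve cells, 7, was 3 without the low-count filter, 15 with all 19 libraries in one fit and 29 with no fold cutoff, and ran from 3 to 17 when each library was left out. Over all genes the count of 355 became 334, 420 and 1574 in these fits, in that order. It ran from 260 to 395 when each library was left out. With inflammation in CCR2+ve cells, 11 rose and 2 fell. Without a fold cutoff the counts were 21 and 4. The number that fell was 1 with DESeq2, with RLE or upper-quartile scaling and with all libraries in one fit. Over all genes 3579 were called lower in the main fit, and 3293, 3502, 3092 and 3491 in those fits. Leaving out single libraries gave 10 to 15 that rose and 1 to 3 that fell, with 1 without resting CCR2+ve replicate 1 or 4 or inflamed CCR2+ve replicate 1 or 2. In CCR1/2+ve cells 25 to 30 rose. Over all genes, leaving out single libraries gave 1623 to 1974 higher and 3216 to 3478 lower in CCR2+ve cells. In CCR1/2+ve cells it gave 1563 to 1818 higher over all genes. The single interaction call became 10 with DESeq2, 2 with RLE or upper-quartile scaling, no filter or GC offsets, 4 with all libraries in one fit and 8 with the replicate block, and ran from 0 to 4 without single libraries. Over all genes the 45 calls with a positive term became 379, 85, 112, 92, 89, 151 and 97 in these fits, in that order. Without single libraries they ran from 0 to 170. The causes were not tested. No alternative turned a called direction.

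The replicate block gave 9 genes lower at rest (8 with GC offsets as well) and changed no call between inflamed CCR1+ve and CCR2+ve cells. Over all genes the block gave 427 lower at rest, and 384 with GC offsets as well. Where numbers did not pair the libraries, it gave 11 and 2 in CCR2+ve cells, beside 1599 and 3324 of all genes. In CCR1/2+ve cells it gave 28 that rose (Stat2 lost its call, adjusted p = 0.103), beside 1795 of all genes. It gave 33 rather than 36 genes lower in CCR1+ve than in CCR1/2+ve cells, while the count over all genes went from 2718 to 2233. The median change of all genes with inflammation moved with scaling, from -0.10 to 0.08 (upper quartile) in CCR2+ve cells and from -0.25 to -0.06 (upper quartile) or -0.46 (library size alone) in CCR1/2+ve cells; the genes' median stood 0.58 to 0.61 and 1.55 to 1.56 above it under TMM and these scalings. Counts this deep limit precision mainly for Mx1, Mx2 and Ifi44 in CCR1+ve libraries, under 1 CPM.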
